A study of Homo sapiens with 8 samples.

Results

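Extracellular matrix and laminin genes are described here by the CUT&RUN peaks of BRG1 and of Flag-tagged actin in and around them. The 45 genes were taken by name from 20033 protein-coding genes, and comprise 9 laminin chain genes, 15 collagen genes and 21 other matrix genes. Their windows, the RefSeq span plus 2 kb on either side, covered 4.58 Mb.

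The libraries came from HCT-116, a human colorectal carcinoma cell line. CUT&RUN tethers a nuclease to chromatin through an antibody and sequences the fragments that are cut free. For BRG1, the ATPase encoded by SMARCA4, there was 1 library of SETD3 control cells and there were 2 of SETD3 knockout cells, KO1 and KO2. The Flag-actin libraries, made with tagged wild-type ACTB, had the same layout, and each antibody came with 1 IgG library from control cells. The title of the IgG library beside Flag-actin also says Empty, and whether those cells held the tagged actin is not stated in the labels. SETD3 methylates a histidine of actin, and the study's title links that methylation to BRG1 occupancy, translation and adhesion. Whether KO1 and KO2 are clones or cultures is not stated, no library was repeated, and peak lists hold no expression with which the cell line could be checked. With 1 control and 2 knockout libraries per antibody no test between groups was run, and counts and ranks are given without p-values.

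The matrix is the mesh of secreted proteins that cells attach to. Laminins are trimers of an alpha, a beta and a gamma chain that polymerise in the basement membrane, where type IV collagen, nidogens, perlecan (HSPG2) and agrin (AGRN) join them. The products of LAMA3 and LAMB3 join in a laminin that anchors epithelial cells, and the fibrillar collagens, fibronectin and fibrillins belong mostly to the stroma beneath. BRG1 drives SWI/SNF remodellers, which contain actin and move nucleosomes at promoters and enhancers.

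Of the 45 genes, 35 had an entry in the RefSeq promoter table (GRCh38.p14, the build of the hg38 lists), which gives the bases from 250 before to 50 after a start. BRG1 control peaks outside IgG, that is without overlap with either IgG list, touched 5 of these 35 windows. Of the 5, 3 belong to laminin genes, while LAMA4, LAMA5, LAMB1 and LAMB2 had an entry and no such peak in it. In the promoter table as a whole, 3575 of 15842 windows (22.6%) held such a peak, a larger share than among the 35. The sequences of these 5 windows are shown because they held such a peak. None of their peaks had a counterpart, an overlapping peak of at least 1 bp, in KO1 or KO2. That is common: over all genes, spans plus 2 kb, 82.3% of BRG1 control peaks outside IgG had none. Capitals mark matches to the AP-1, SP1 and TEAD motifs, the TATA box and the CArG box, searched on both strands; the letters of all but the CArG box follow the sequences. No matches of different motifs overlapped in these sequences.
LAMA3, chr18:23872770-23873069, plus strand: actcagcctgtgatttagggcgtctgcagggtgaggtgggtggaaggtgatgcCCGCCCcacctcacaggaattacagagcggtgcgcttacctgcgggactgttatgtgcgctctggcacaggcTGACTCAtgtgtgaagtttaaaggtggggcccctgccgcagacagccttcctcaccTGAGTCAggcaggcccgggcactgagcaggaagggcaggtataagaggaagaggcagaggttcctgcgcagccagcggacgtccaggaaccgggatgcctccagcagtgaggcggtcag
THBS1, chr15:39580829-39581128, plus strand: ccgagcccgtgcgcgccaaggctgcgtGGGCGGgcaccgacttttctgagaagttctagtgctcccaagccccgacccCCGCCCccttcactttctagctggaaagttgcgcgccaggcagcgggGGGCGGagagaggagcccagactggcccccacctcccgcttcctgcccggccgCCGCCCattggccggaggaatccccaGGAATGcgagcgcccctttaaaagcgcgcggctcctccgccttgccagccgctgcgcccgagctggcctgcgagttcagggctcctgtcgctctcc
LAMC1, chr1:183023170-183023469, plus strand: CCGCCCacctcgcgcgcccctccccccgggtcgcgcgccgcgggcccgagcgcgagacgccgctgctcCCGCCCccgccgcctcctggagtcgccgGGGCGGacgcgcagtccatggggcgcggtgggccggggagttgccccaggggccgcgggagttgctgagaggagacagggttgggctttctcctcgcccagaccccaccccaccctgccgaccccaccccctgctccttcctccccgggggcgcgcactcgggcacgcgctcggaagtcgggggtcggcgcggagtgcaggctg
LAMB3, chr1:209652376-209652675, minus strand: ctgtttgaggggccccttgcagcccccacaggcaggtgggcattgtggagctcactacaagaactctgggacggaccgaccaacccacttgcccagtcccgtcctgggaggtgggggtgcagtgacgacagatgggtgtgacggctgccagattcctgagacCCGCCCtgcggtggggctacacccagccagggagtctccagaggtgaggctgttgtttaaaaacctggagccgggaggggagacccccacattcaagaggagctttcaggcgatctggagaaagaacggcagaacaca
SPARC, chr5:151686866-151687165, minus strand: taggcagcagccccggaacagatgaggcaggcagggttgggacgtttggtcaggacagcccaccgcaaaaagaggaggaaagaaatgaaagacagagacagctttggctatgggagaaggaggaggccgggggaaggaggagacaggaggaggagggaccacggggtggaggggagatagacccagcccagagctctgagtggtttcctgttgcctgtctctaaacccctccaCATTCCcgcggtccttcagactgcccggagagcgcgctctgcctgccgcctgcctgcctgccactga

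The LAMA3 window surrounds a start inside the gene, which is known to use an internal promoter for a short epithelial transcript. A BRG1 control peak of 390 bp (chr18:23872661-23873050) covered 281 of its 300 bases and ranked at the 69.6 percentile of its list by total signal. Both AP-1 matches of the window, TGACTCA at -125 and TGAGTCA at -69 bp from the start, lay under that peak. Among all 15842 promoter windows 5.75% held an AP-1 match, and among the 35 matrix genes LAMA3 and MMP7, a matrix protease gene, did. The motif searched was TGANTCA. The SP1 motif, searched as GGGCGG, was found in 25 of the 35 windows, against 58.5% of all windows. The TEAD motif, searched as GGAATG, was found in 6 of the 35 (11.7% of all windows). A TATA box, searched as TATAAA, was found in 5 (9.63%), and the CArG box in 0 (1.21%). A Flag-actin control peak outside IgG touched 1 of the 35 promoter windows, that of FBN1 (2.55% of all windows). These motif matches describe the sequences and do not show that a factor was bound.

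Upstream of LAMB3, an epithelial beta chain gene, the BRG1 control list held a peak of 260 bp at -145 bp and a wider one of 670 bp at -630 bp (chr1:209652721-209653390, 85.0 percentile). Another lay at 1025 bp inside the gene (83.5 percentile). KO1 had peaks at the wider upstream site (64.6 percentile) and at the inner site (10.4 percentile), and KO2 at neither. At LAMC1, the most widely used gamma chain gene, 4 control peaks lay between -730 and 1225 bp, at percentiles from 30.2 to 58.8. THBS1, which encodes the adhesive glycoprotein thrombospondin-1, also had 4, between -1189 and 86 bp, at percentiles from 34.4 to 66.1. KO1 held none of these at LAMC1 or THBS1, and KO2 held 1, at the outermost THBS1 site (24.0 percentile). SPARC, which encodes a collagen-binding secreted protein, had a peak of 120 bp at -195 bp, at the 19.5 percentile.

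**Figure D1:**
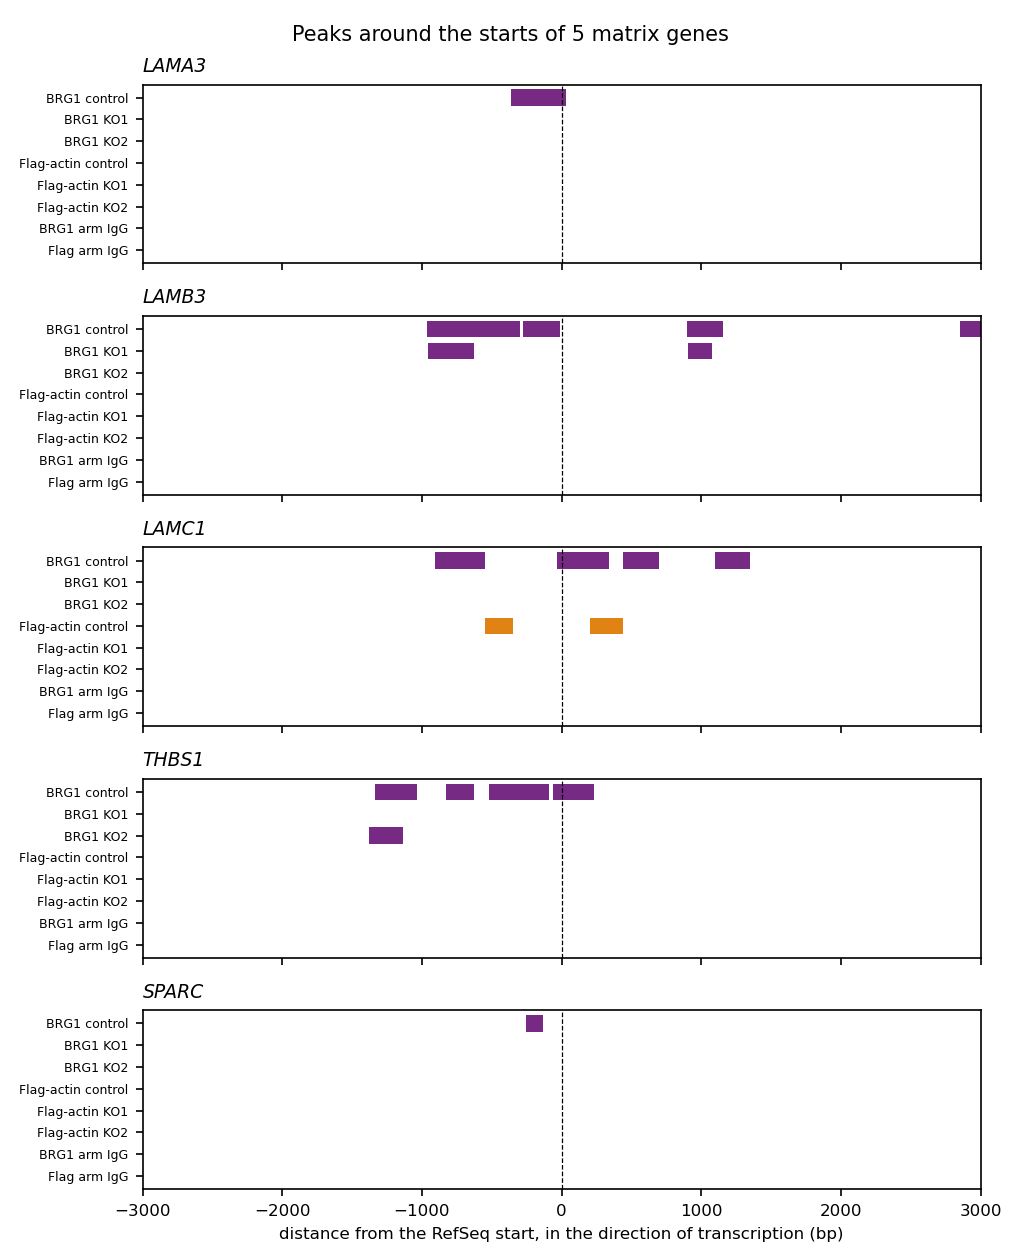
Peaks of all 8 lists within 3 kb of the RefSeq starts of LAMA3, LAMB3, LAMC1, THBS1 and SPARC, with the distance from the start in bp on the x axis and 1 row per library on the y axis. Bars span the peaks, purple in BRG1 lists and orange in Flag-actin lists, and would be grey where a peak overlapped an IgG list. BRG1 control peaks stand at all 5 starts, KO1 keeps 2 at LAMB3 and KO2 keeps 1 at THBS1.

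Peak centres within 1 kb of a start were counted for the 35 genes with an entry. In the BRG1 control 8 of the 35 had one outside IgG (22.9%, against 29.3% of all 15842 genes), namely LAMA3, LAMB2, LAMB3, LAMC1, THBS1, TNC, SPARC and MMP7. KO1 had 2 (5.71%, against 3.81%), LAMB3 and SDC4, and KO2 had 0 (against 11.6%).

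Over the whole windows, every laminin gene held a BRG1 control peak, 9 of 9, as did 13 of 15 collagens and 14 of 21 other matrix genes. Together these were 36 of 45, against 61.9% of all protein-coding genes and 75.1% of the 7024 genes whose span lay in the middle range of the members, 25.8 to 122 kb. KO1 had peaks at 24 of the 45 (34.9% of all genes, 44.3% of those of middle span) and KO2 at 26 (44.6% and 55.8%). Longer genes have more room for peaks: the median span was 72.4 kb in the 45 genes and 24.1 kb in all genes. The threshold of the peak caller keeps a top fraction of each library, so presence in a list also moves with the length of the list. The BRG1 lists held 53270 peaks in control cells against 23784 in KO1 and 32038 in KO2, with median widths of 140, 40 and 40 bp. The Flag-actin lists held 38902, 27249 and 35892 peaks in the same order, with median widths of 220, 50 and 90 bp.

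Among the laminin alpha chains, LAMA5, which is broadly expressed in epithelia, held 6 BRG1 peaks in control cells against 1 in KO1 and 0 in KO2. The IgG libraries had 1 (BRG1 arm) and 0 (Flag arm) there. The peak that KO1 shared with the control lay at 17082 bp inside the gene, at the 73.9 percentile of the control. LAMA3 held 5 BRG1 peaks in each of the 3 libraries, and 2 in each IgG library. Its equal counts hid different places: of the 3 control peaks outside IgG none had a counterpart in KO1 or KO2, while both knockout lists shared a site at about -153 kb from the internal start that the control lacked. LAMA1, an embryonic chain, held 4, 3 and 4 in control, KO1 and KO2, and 2 in each IgG library. LAMA4, a vascular chain, held 1, 1 and 0, with none in IgG. No control peak outside IgG at LAMA1 or LAMA4 was seen again in a knockout list.

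Of the beta chains, LAMB1 held 5 BRG1 peaks in the control and 1 in each knockout. Its 4 control peaks outside IgG included 3 within 4 kb of each other inside the gene, the highest at the 77.4 percentile (chr7:107949181-107949590). The knockout lists shared a peak of 20 bp elsewhere in LAMB1. LAMB3 held 6 in control cells against 3 in KO1 and 2 in KO2. LAMB2 held 1 in the control, at -550 bp, and 0 in both knockouts. The gamma chain gene LAMC1 held 7, 1 and 1, of which 6, 0 and 0 lay outside IgG, and LAMC3 held 1, 0 and 0. The BRG1 arm and Flag arm IgG libraries had 0 and 1 peaks at LAMB1, 1 and 0 at LAMB3, 2 and 1 at LAMC1, and none at LAMB2 or LAMC3. Other genes share some windows, namely ADRM1 with LAMA5, USP19 with LAMB2 and CAMK1G with LAMB3. At LAMA5, LAMB1, LAMB2, LAMB3, LAMC1 and LAMC3 the control count was above both knockout counts. The control list was the longest of the BRG1 lists, and the share of all genes with this order was not counted, so it is not read as particular to laminins.

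**Figure D2:**
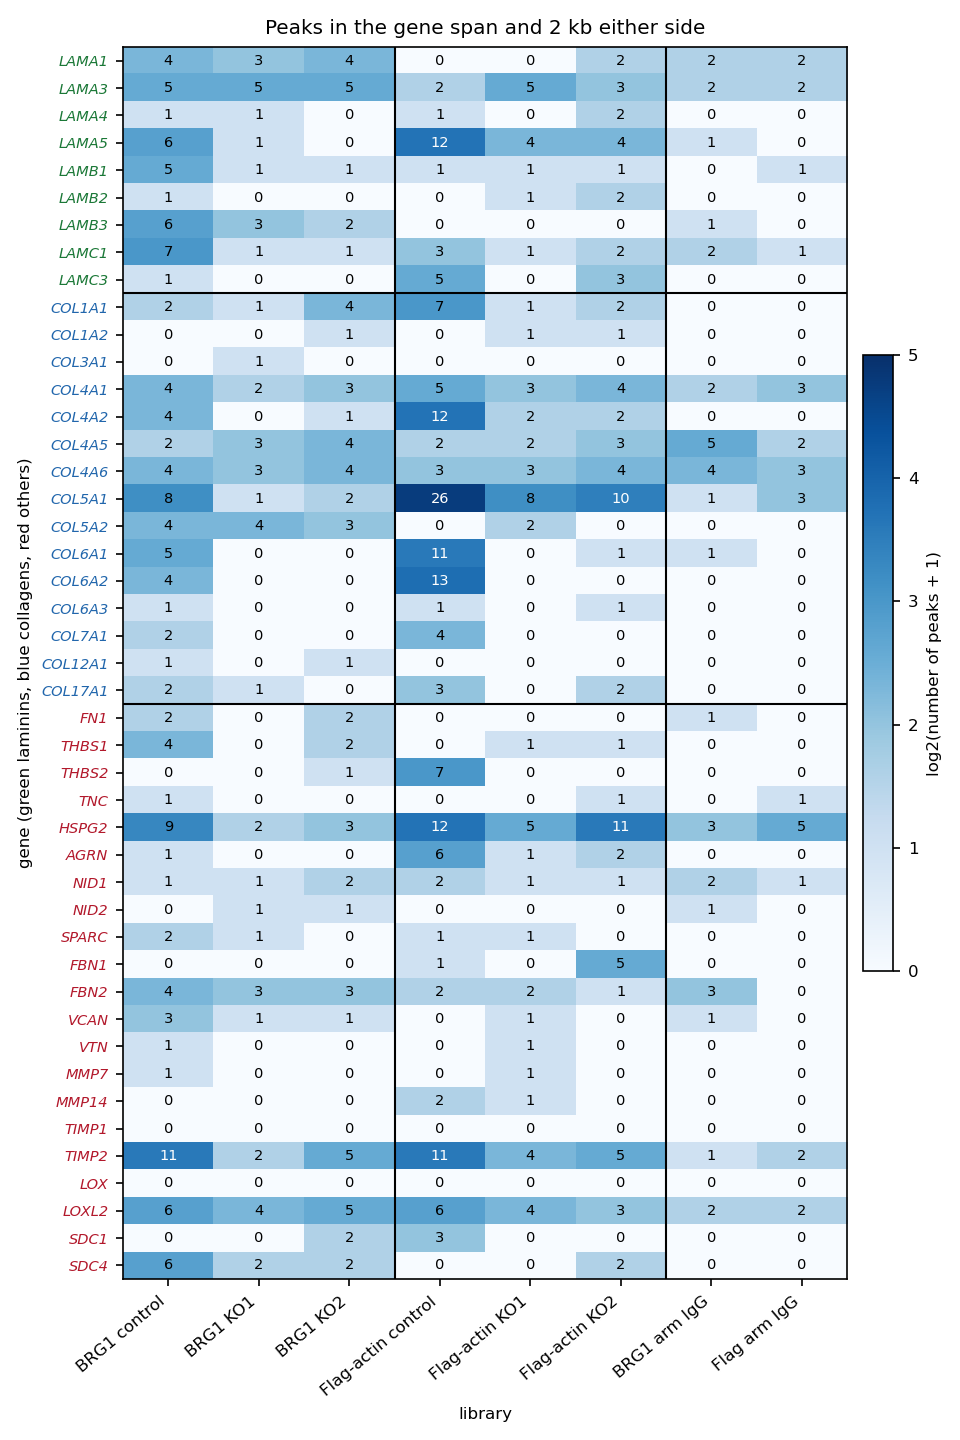
Number of peaks in the gene span and 2 kb either side for each of the 45 genes (y axis) in each of the 8 libraries (x axis), with the number in each cell and colour as log2(number + 1). LAMC1 goes from 7 BRG1 control peaks to 1 in each knockout, COL6A1 and COL6A2 from 11 and 13 Flag-actin control peaks to 0 in KO1, and TIMP1 and LOX have no peak in any list.

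Among collagens, the 5 genes with most BRG1 control peaks outside IgG were COL5A1, COL6A1, COL5A2, COL4A2 and COL6A2. COL5A1, a regulator of fibril thickness, held 8 BRG1 peaks in control cells against 1 in KO1 and 2 in KO2, and all of the knockout peaks overlapped IgG. COL6A1 and COL6A2, which encode 2 chains of the microfibrillar type VI collagen, held 5 and 4 in the control and 0 in both knockouts. COL4A2, which encodes a chain of basement membrane collagen, held 4, 0 and 1. In these 4 genes the control count exceeded both knockout counts, but they were picked by their control peaks, so that order is no support for a difference. The IgG libraries had 1 and 3 peaks at COL5A1, 1 and 0 at COL6A1, and none at COL6A2 or COL4A2. Percentiles were low, however, from 1.89 to 51.6 at COL6A1 and COL6A2. Outside IgG the highest BRG1 control percentile was 28.7 at COL5A1, and 73.7 at COL4A2.

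COL5A2 held 4 BRG1 peaks in control cells against 4 in KO1 and 3 in KO2, with none in either IgG list. A peak of 730 bp inside it (chr2:189393411-189394140, 85.6 percentile) had a counterpart in KO2, and one of 140 bp in both. Another (chr2:189441071-189441530, 65.1 percentile) lay across the end of the gene span with the higher coordinate and had a counterpart in KO1. The COL5A2 window also holds WDR75, a gene of ribosome assembly. COL1A1, the main chain gene of type I collagen, held 2, 1 and 4, again with no IgG peak. Its widest site, 1120 bp (chr17:50199731-50200850, 88.1 percentile), was the highest ranked BRG1 control peak outside IgG at any of the 45 genes and was present in both knockouts, at the 31.2 percentile in KO1 and as high as the 45.4 percentile in KO2. COL1A2 and COL3A1, whose products also form fibrils, held no BRG1 control peak. For COL4A5 and COL4A6, neighbours on the X chromosome, every peak of every antibody list overlapped IgG.

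In the other matrix genes, TIMP2, an inhibitor of matrix proteases, held 11 BRG1 peaks in control cells against 2 in KO1 and 5 in KO2. A site of 1160 bp inside it (chr17:78882941-78884100, 84.4 percentile) was present in all 3 lists, as was one of 190 bp near the end of its span. LOXL2, which encodes a collagen cross-linking oxidase, held 6, 4 and 5, and its highest site outside IgG (560 bp, 85.1 percentile) was also in all 3. HSPG2, the perlecan gene, held 9, 2 and 3, and the 5 knockout peaks all overlapped IgG. SDC4, which encodes a cell surface proteoglycan of adhesion sites, held 6, 2 and 2, and 3 of its control peaks, at 4084, 10449 and 11534 bp inside the gene, had a counterpart in 1 knockout each. THBS1 held 4, 0 and 2. FN1, the fibronectin gene, held 2, 0 and 2, and KO2 shared its site at 25063 bp (64.3 percentile). The IgG libraries had 1 and 2 peaks at TIMP2, 2 and 2 at LOXL2, 3 and 5 at HSPG2, and none at SDC4 or THBS1. The window of TIMP2 also holds CEP295NL, that of LOXL2 R3HCC1, that of HSPG2 LDLRAD2 and that of THBS1 FSIP1. In TIMP2, LOXL2, HSPG2, SDC4 and THBS1 the control count was above both knockout counts. These 5 were picked for having the most BRG1 control peaks outside IgG, so that order is no support for a difference.

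By gene, 10 of the 45 had BRG1 peaks in the control and in neither knockout: LAMB2, LAMC3, COL6A1, COL6A2, COL6A3, COL7A1, TNC, AGRN, VTN and MMP7. This share, 22.2%, was near the 18.5% of all protein-coding genes and the 19.8% of genes of middle span. It was 2 of 9 laminins, 4 of 15 collagens and 4 of 21 others. With every antibody list shortened to the 23784 peaks of the shortest, the 10 became 2, and within the gene span alone they became 5. Outside IgG the number was 15 of 45 (33.3%, against 25.1% of all genes and 29.9% of those of middle span), with 3 laminins, 5 collagens and 7 others. BRG1 was in both knockouts and not in the control at NID2 alone (0.859% of all genes), where the counts were 0, 1 and 1 and both peaks overlapped IgG. Without KO1 this count was 4, and without KO2 it was 2.

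By peak, 88 of the 131 BRG1 control peaks at the 45 genes had no counterpart in either knockout (67.2%, exact 95% binomial interval 58.4 to 75.1, which covers counting error only). The share over the windows of all genes was 61.0%. Outside IgG it was 84 of 102 (82.4%, 73.6 to 89.2), and the value over all genes, 82.3%, lay inside that interval. Over all peaks it was 75% for laminins (57.8 to 87.9, 36 peaks), 65.1% for collagens (49.1 to 79.0, 43 peaks) and 63.5% for other matrix genes (49.0 to 76.4, 52 peaks), and these intervals overlap widely. With lists of equal length the overall share was 31.9%, 15 of 47 peaks, and with peaks of up to 50 bp left out the order of laminins and collagens turned, at 84.4% and 88.9%.

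The 18 BRG1 control peaks outside IgG that did have a knockout counterpart were wider and ranked higher than the other 84. Their median width was 400 bp against 220 bp, and their median percentile 72.0 against 27.6. The same held over all genes, at 300 against 210 bp and percentiles of 66.1 against 33.5. Peaks of high rank without any knockout counterpart included those inside LAMB1, at the 77.4 and 70.8 percentiles, and the one at the internal LAMA3 start.

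**Figure D3:**
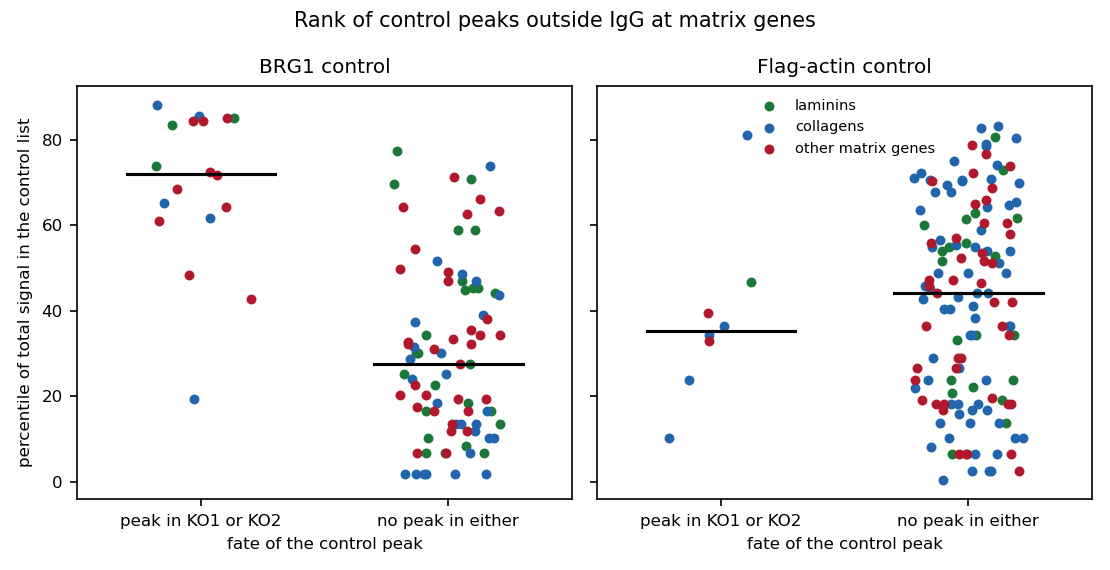
Percentile of total signal within the control list (y axis) for control peaks outside IgG at the 45 genes, split on the x axis by whether KO1 or KO2 held an overlapping peak, for BRG1 (left) and Flag-actin (right). Points are peaks coloured by gene group and bars are medians, which for BRG1 are 72.0 with and 27.6 without a knockout peak, and for Flag-actin 35.3 and 44.3.

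Some background sites were found in every list. Others were not: at LAMA5 and LAMB1 a BRG1 control peak that overlapped IgG had no counterpart in either BRG1 knockout list. At 12 sites in 8 of the 45 genes the BRG1 control peak overlapped a peak of all 7 other lists, both IgG lists included. The share of all genes with such a site was not counted, so the number is not read as particular to matrix genes. They lay in LAMA3, COL4A1, COL4A5, COL4A6, COL5A1, HSPG2, NID1 and LOXL2, were 30 to 120 bp wide and ranked between the 79.2 and 99.3 percentiles of the BRG1 control. The highest were at HSPG2, of 30 and 50 bp, and COL4A1, of 40 bp (chr13:110179411-110179450). The top ranks of these genes in each antibody list are therefore ranks of sites that IgG also held. Over the 45 genes, peaks overlapping IgG made up 22.1% of the BRG1 control peaks, 52.1% in KO1 and 49.2% in KO2, against 30.5%, 67.5% and 54.0% over all genes. For Flag-actin they made up 12.3%, 35.1% and 32.1%, against 28.0%, 52.8% and 44.0%.

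Peak density takes account of gene length. BRG1 control peaks numbered 3.53 per 100 kb at laminins, 2.13 at collagens and 3.37 at other matrix genes, against 2.45 over all genes and 2.90 over genes of middle span. In KO1 these densities were 1.47, 0.793 and 1.10 (0.960 over all genes) and in KO2 1.28, 1.14 and 1.88 (1.35 over all genes). Collagens thus had the fewest BRG1 peaks per length of the 3 groups in each BRG1 list. Flag-actin turned that order round in the control, with 4.26 per 100 kb at collagens, 3.43 at other matrix genes and 2.35 at laminins, against 1.86 over all genes. In Flag-actin KO1 the densities were 1.09, 1.49 and 1.18, and in KO2 1.49, 2.07 and 1.86, in the same order of groups. In the IgG libraries no group exceeded 0.907 per 100 kb. Of the 86 Flag-actin control peaks at collagens, COL5A1 held 26, COL6A2 13, COL4A2 12 and COL6A1 11. These genes lie within 5 Mb of a chromosome end, where Flag-actin control peaks were dense over all genes as well. The collagen density without them was not computed.

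**Figure D4:**
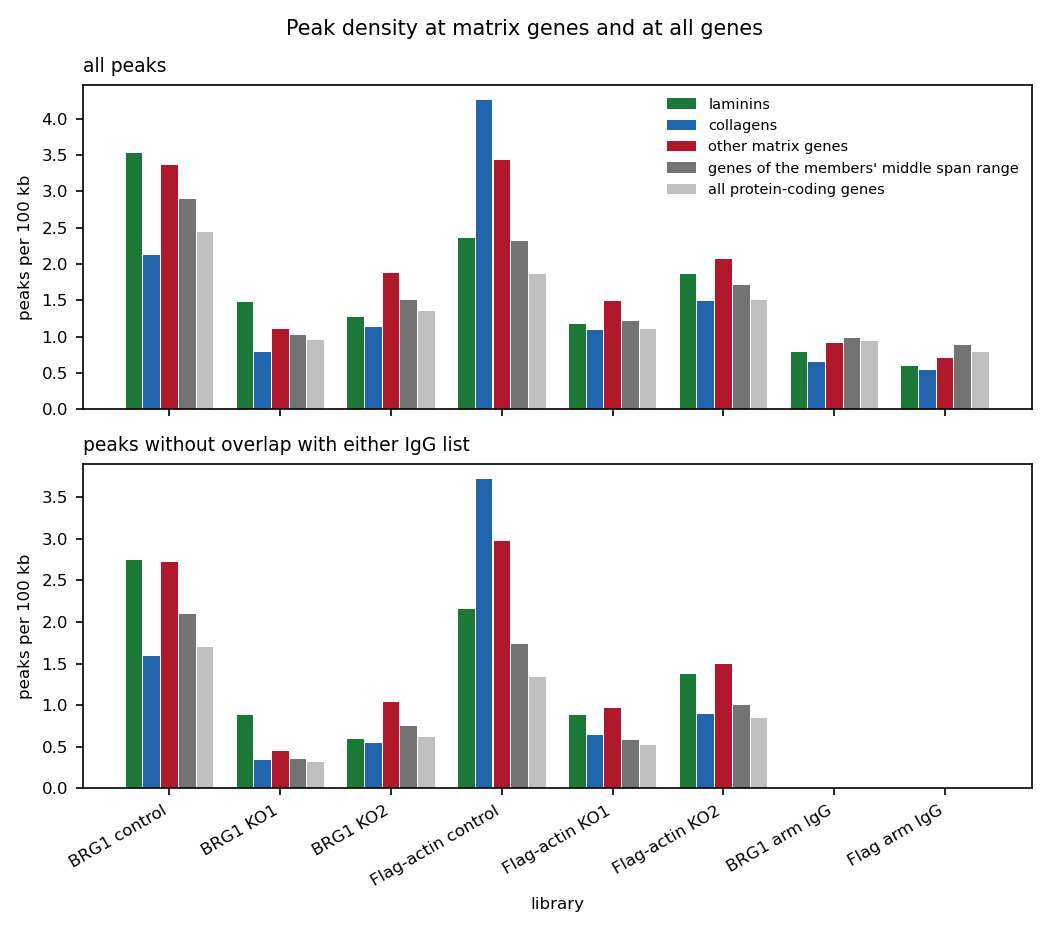
Peaks per 100 kb of gene window (y axis) in each library (x axis) for laminins, collagens, other matrix genes, genes of the members' middle span range and all protein-coding genes, over all peaks (top) and over peaks outside IgG (bottom, antibody lists). Each bar is 1 library; collagens are lowest for BRG1 in the control (2.13) and highest for Flag-actin in the control (4.26).

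Flag-actin control peaks lay at 28 of the 45 genes (50.3% of all genes, 57.0% of those of middle span). These were 6 of 9 laminins, 11 of 15 collagens and 11 of 21 others. KO1 had peaks at 25 (39.0% of all genes, 49.2% of those of middle span) and KO2 at 28 (47.4% and 58.7%). COL5A1 held the most, 26 in control cells against 8 in KO1 and 10 in KO2, of which 23, 6 and 7 lay outside IgG. COL6A2 held 13, 0 and 0, and COL6A1 11, 0 and 1. COL4A2 held 12, 2 and 2, and LAMA5 12, 4 and 4. In each of these 5 genes the control was above both knockouts, and BRG1 had its control count above both as well. The 5 are named here for high Flag-actin control counts, however. The collagens among them were also picked for most BRG1 control peaks, so neither order is support for a difference.

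Among the other matrix genes, HSPG2 held 12 Flag-actin peaks in control cells against 5 in KO1 and 11 in KO2. TIMP2 held 11, 4 and 5, and THBS2, an angiogenesis inhibitor gene, 7, 0 and 0. THBS2 had no IgG peak and 0, 0 and 1 BRG1 peaks. AGRN held 6, 1 and 2, LOXL2 6, 4 and 3, and SDC4 0, 0 and 2, and the collagen COL5A2 held 0, 2 and 0. LAMB3 held none in any Flag-actin list, nor did FN1, COL3A1, COL12A1, NID2, TIMP1 or LOX. The other laminins with Flag-actin peaks showed no common order. LAMA3 held 2, 5 and 3, LAMB1 1 in each, LAMA4 1, 0 and 2, LAMA1 0, 0 and 2, and LAMC3 5, 0 and 3. At LAMC1, 3 Flag-actin control peaks, at -450, 320 and 15780 bp, had no counterpart in KO1 or KO2, which held 1 and 2 peaks elsewhere in it. FBN1, the fibrillin-1 gene, was higher in KO2, with 1 peak in control cells against 0 in KO1 and 5 in KO2.

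Of the 163 Flag-actin control peaks at the 45 genes, 136 had no knockout counterpart (83.4%, interval 76.8 to 88.8), against 69.0% over all genes. Outside IgG the share was 135 of 143 (94.4%, 89.3 to 97.6), and the 94.3% over all genes lay inside that interval. No such peak had a counterpart in both knockouts, and over all genes only 178 of 17671 did. The 8 with one in either lay in LAMA5, COL1A1, COL4A1, COL5A1 (2 sites), COL6A1, HSPG2 and AGRN, and 7 of them were KO2 peaks. The gene-level count was small: COL6A2, COL7A1, THBS2 and SDC1, 4 of 45 (8.89%), had Flag-actin peaks in the control alone. The share was 10.7% of all genes and 8.04% of those of middle span. Without KO2 the 4 became 10, and within 1 kb of the gene ends they became 11.

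LAMB2, COL1A2 and THBS1 had Flag-actin peaks in both knockouts and not in the control (3 of 45, 6.67%). The share was 3.54% of all genes and 5.05% of those of middle span. At LAMB2 the counts were 0, 1 and 2, at COL1A2 0, 1 and 1, and at THBS1 0, 1 and 1. None of the 3 had an IgG peak. Both KO2 peaks at LAMB2 (chr3:49119631-49119800 and chr3:49120841-49121040) lay outside the gene span, which starts at 49121114, in the 2 kb that the window adds, and USP19 also lies in that window. With the gene span alone the count was 2. In none of these genes did the KO1 and KO2 peaks overlap. All were outside IgG, 80 to 200 bp wide and at or below the 56.8 percentile of their lists. With lists of equal length the count was 0, without KO1 it was 6 and without KO2 it was 7.

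Flag-actin control peaks were concentrated in matrix genes near chromosome ends, a split made after the values were seen. The distance was taken to the outermost annotated gene of the long arm or to the first base of the chromosome, the short arms of chromosomes 13, 14, 15, 21 and 22 left aside. The 10 genes within 5 Mb of an end were LAMA5, COL4A1, COL4A2, COL5A1, COL6A1, COL6A2, COL6A3, THBS2, AGRN and TIMP2. They held 103 of the 163 Flag-actin control peaks, 10.8 per 100 kb, and the other 35 genes held 60, 1.65 per 100 kb. Over all genes the densities were 5.75 within 5 Mb and 1.48 beyond. With a limit of 10 Mb the 12 matrix genes inside it had 8.81 and the other 33 had 1.64.

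The knockout lists showed the same order at smaller densities, with 2.3 and 0.965 per 100 kb in KO1 and 3.03 and 1.43 in KO2. In the BRG1 control the 10 genes had 4.60 and the other 35 had 2.40, against 3.16 and 2.38 over all genes. In BRG1 KO1 the values were 0.628, from 6 peaks, and 1.16, against 0.982 and 0.958 over all genes. In BRG1 KO2 they were 1.26, from 12 peaks, and 1.46, against 1.53 and 1.33, and outside IgG they were 0.732 and 0.717. By gene, COL6A1 (0.660 Mb from the end) had 40.3 Flag-actin control peaks per 100 kb and COL6A2 (0.532 Mb) 33.6, the 2 highest. COL1A1, 32.9 Mb from the end, was an exception with 32.5, from 7 peaks in a short gene. COL6A3, at 4.49 Mb, had 1.06.

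**Figure D5:**
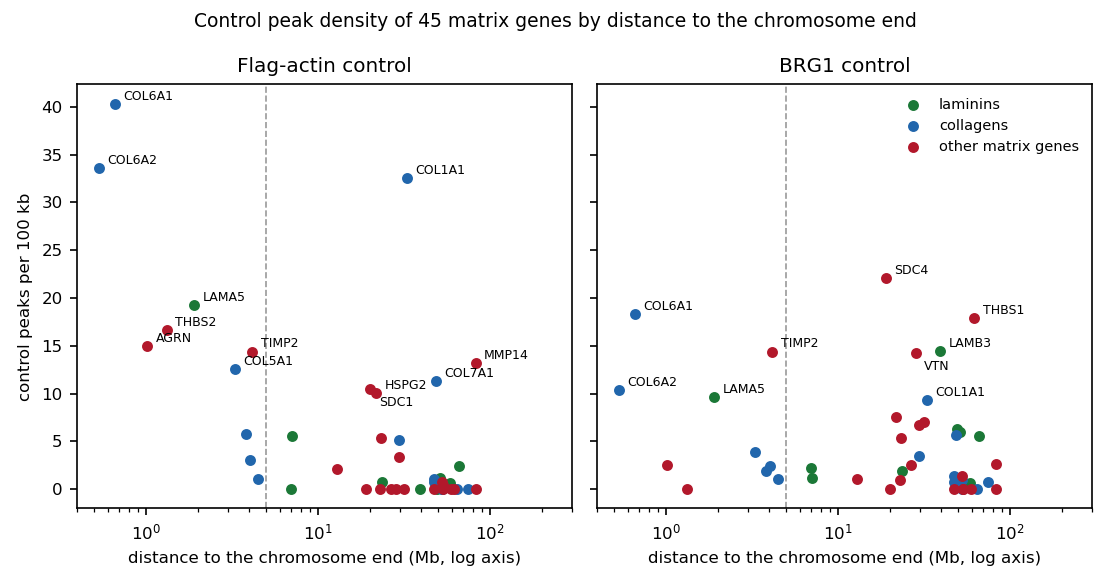
Control peaks per 100 kb of window (y axis) against the distance to the chromosome end (x axis, Mb, log axis) for the 45 genes in the Flag-actin control (left) and the BRG1 control (right), coloured by gene group, with a dashed line at 5 Mb. COL6A1 and COL6A2 stand highest for Flag-actin, at 40.3 and 33.6, and COL1A1 at 32.5 is the highest of the genes beyond 5 Mb.

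Control peaks of BRG1 and Flag-actin overlapped at 18 of the 45 genes (25.6% of all genes, 30.9% of those of middle span). At 9 sites in 8 of the 45 genes a BRG1 control peak outside IgG overlapped a Flag-actin control peak (845 of all genes, 4.22%, had such a site). They lay in LAMA5, LAMC1, COL4A2, COL6A1, COL6A2 (2 sites), COL6A3, COL17A1 and AGRN. Of the BRG1 control peaks outside IgG at the 45 genes, 8.82% (9 of 102, interval 4.11 to 16.1) were shared, against 3.89% over the whole list. Of the Flag-actin peaks, 6.29% (9 of 143, 2.92 to 11.6) were shared, against 5.01%. The LAMC1 site (chr1:183023391-183023760) spanned the start and had the highest BRG1 percentile of the 9, 58.8. COL17A1, which encodes a hemidesmosome collagen, came next with 43.7. COL17A1 held 2, 1 and 0 BRG1 peaks and 3, 0 and 2 Flag-actin peaks in all, AGRN 1, 0 and 0 BRG1 peaks, and COL6A3 1, 0 and 0 BRG1 peaks and 1, 0 and 1 Flag-actin peaks. None of the 9 sites had a peak in any of the 4 knockout lists. Over all genes, 82.3% of BRG1 and 94.3% of Flag-actin control peaks outside IgG had no counterpart in the knockout lists of their antibody. Of the 8 genes, 6 were among the 10 within 5 Mb of a chromosome end, where Flag-actin peaks were dense. With lists of equal length outside IgG, an alternative added after the data were seen, no gene had a shared site.

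A list of 54 further matrix genes served as a second set from the same pathway. Of these, 9 (16.7%, against 18.5% of all genes) had BRG1 peaks in the control and in neither knockout. They were CCN1, CCN2, MMP1, MMP2, MMP9, TIMP3, SDC3, GPC1 and LOXL3. In both knockouts alone 0 had them, against 0.859% of all genes. For Flag-actin, 2 (MMP1 and ADAMTS1) had peaks in the control and in neither knockout (3.70%, against 10.7% of all genes). In both knockouts alone 4 had Flag-actin peaks (7.41%, against 3.54% of all genes). The matrix receptor gene CD44 held 7, 0 and 2 BRG1 peaks, and DAG1, the dystroglycan gene, 5, 0 and 2. The IgG libraries had 2 and 1 peaks at each of them. CCN1 and CCN2, which encode small adhesive matrix proteins, held 2 and 1 BRG1 control peaks, all outside IgG, and none in the knockouts. BRG1 control density over the 54 genes was 2.93 per 100 kb, against 2.86 at the 45.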

How the data were processed

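Peak lists of 8 CUT&RUN libraries, 1 list per library, were analysed. Per the submitters' processing notes the build was hg38. They name SEACR, MACS2, BWA, bedtools 2.30.0, deepTools and SAMtools, and FastQC 0.12.0 and Trim Galore 0.4.5, without order or settings. The deposited lists have SEACR's layout, with a total and a maximum signal per peak, and their names give thresholds of 0.01 for antibody and 0.005 for IgG libraries. How the deposited signal was scaled was not given in the sources used here, so it served to rank peaks within a list. Sequencing depth is unknown. The lists held between 20303 and 53270 peaks on chromosomes 1 to 22, X and Y, and peaks elsewhere (2.11% to 4.04%) were left out.

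Peaks overlapping a gene's RefSeq span plus 2 kb by at least 1 bp were counted (pandas 2.3.3, numpy 2.4.6, Python 3.11.15), and a peak touching 2 windows counted for both genes but once in totals. The overlap function was tested on 6000 simulated intervals against bedtools 2.31.1, with 0 disagreements. Intervals are exact binomial ones at 95%. No test between groups was run. The genes and lists were chosen with earlier results of these data known. Counts in every library were given for all laminins and, among collagens and among other genes, for the 5 with most BRG1 and the 3 with most Flag-actin control peaks outside IgG, for genes with peaks in both knockouts alone and, as sites, for peaks shared by the antibodies. Further genes were named after their values were seen. A gene of the further list is not reported here.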

Additional observations from a re-analysis of the deposited data

How the results depend on the processing

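The 10 genes with BRG1 and the 4 with Flag-actin in the control alone, the 1 (BRG1) and 3 (Flag-actin) in both knockouts alone, the shares of control peaks without a knockout counterpart (67.2% and 83.4%), the 18 genes with overlapping control peaks of both antibodies and the laminin minus collagen difference in the BRG1 share (9.88 points) were recomputed. Without IgG overlaps, BRG1 in both knockouts alone gave 0 genes, the shares were 82.4% and 94.4%, the laminin difference was 4.91 points, and 8 genes had shared sites. With lists of equal length, BRG1 was lost at 2 genes, its share was 31.9%, Flag-actin in both knockouts alone gave 0, the laminin difference was 26.3 points, and 10 genes had shared sites. With the upper 50% of each list by rank, both counts in knockouts alone were 0, the shares 58% and 75.3%, and the shared genes 10. Without peaks of up to 50 bp, BRG1 in both knockouts alone gave 0, the shares were 83.2% and 93.5%, and the laminin minus collagen difference turned to -4.51 points. With the gene span alone, BRG1 was lost at 5 genes. Within 1 kb of gene ends, Flag-actin was lost at 11 genes, the counts in both knockouts alone were 0 and 1, the Flag-actin share was 95%, the laminin difference 31.4 points and the shared genes 2. With equal lengths and without IgG overlaps, added after the data were seen, BRG1 was lost at 3 genes and alone in both knockouts at 0, the shares were 45.5% and 98.0%, the laminin difference was 25 points, and 0 genes had shared sites. With 1 knockout library left out in turn, BRG1 was lost at 14 genes either way and present in the remaining knockout alone at 2 to 4, with shares of 71.0% to 77.9%. For Flag-actin these values were 6 to 10, 6 to 7 and 84.0% to 89.6%. The median percentile of BRG1 control peaks was 42.7 by total and 34.4 by maximum signal. Shorter lists hold fewer peaks by construction, and the cause of the other changes was not tested. No paired analysis was possible because each antibody had 1 control library and no test was made. The number of libraries limits every count, and depth is unknown.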

Other observations

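The knockout libraries differed from each other at single matrix genes. SDC1, a syndecan gene, held BRG1 peaks in KO2 alone, 2 of them against 0 in the control and KO1, and Flag-actin peaks in the control alone, 3 against 0 and 0. The 5 Flag-actin KO2 peaks at FBN1, none of which overlapped IgG, ranked between the 34.9 and 67.8 percentiles of their list. COL1A1 had 4 BRG1 peaks in KO2 against 1 in KO1, all at or near its 2 control sites. VTN and MMP7, short genes of 3.02 and 10.2 kb, each held 1 BRG1 peak in the control and 1 Flag-actin peak in KO1.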
